A study of Saccharomyces eubayanus and Saccharomyces cerevisiae x Saccharomyces eubayanus with 20 samples.

Results

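The proteasome is the large protease that degrades most ubiquitin-tagged proteins in the yeast cell. Its core particle is a barrel of outer alpha rings, which gate the entrance, and inner beta rings, of which the subunits Pre3, Pup1 and Pre2 carry the active sites. The regulatory particle caps the barrel: its base holds the Rpt ATPases, which unfold the substrate and feed it into the core, and its lid holds the deubiquitinase Rpn11, which removes the ubiquitin chain. In Saccharomyces cerevisiae the subunit genes are switched on together by the transcription factor Rpn4, a short-lived protein that the proteasome itself degrades, and which binds a promoter motif known as the proteasome-associated control element.

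Genes were taken by standard name: PRE, PUP, RPN or RPT followed by a number, or SCL1. The rule found 34 of the 5511 genes in the table of the S. eubayanus strains. In the table of the interspecific hybrid it found 68 of 11285 genes, as 34 of 5509 in the S. eubayanus subgenome and 34 of 5776 in the S. cerevisiae subgenome. Of the 34 names, 14 are core subunits (7 alpha and 7 beta) and 18 are regulatory subunits (10 base and 8 lid). The remaining 2 names are no subunits: RPN4 encodes the transcription factor and RPN14 encodes a chaperone that assists assembly of the base. SEM1, a small lid subunit, falls outside the name rule and is given with the assembly factors. The 34 genes lie on 13 of the S. eubayanus chromosomes, and 0 of them overlapped another annotated gene.

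RNA was sequenced from 20 shake-flask cultures in 10 groups of 2, all grown at 20 °C on 20 g/L of one sugar and taken in mid-exponential growth. The labels give the same optical density at sampling, 12.5, for all cultures. The study's methods give a higher density for maltotriose cultures than for glucose and maltose cultures. If so, maltotriose and sampling density cannot be told apart. IMX1765 is S. eubayanus CDFM21L.1 in which both alleles of SGA1 were replaced by the S. cerevisiae regulator gene MAL13 under the constitutive PGK1 promoter, and IMX1939 carries the same replacement and in addition a deletion of both alleles of the maltose transporter gene SeMALT1; each was grown on maltotriose, maltose and glucose. HTS020, a hybrid of S. cerevisiae CBC-1 and S. eubayanus CDFM21L.1, was grown on the same 3 sugars, and the unmodified Himalayan isolate CDFM21L.1 was grown on glucose alone. For HTS020 the sample titles and carbon-source tags were used as the medium, because the free-text descriptions of 3 libraries, the first maltose and both maltotriose ones, name the other of these sugars; every hybrid comparison below that involves maltose or maltotriose rests on that choice. Each IMX strain is one engineered line, so a change elsewhere in its genome cannot be told apart from the named edits. Gene-assigned reads ranged from 16874233 to 27175322 in 19 libraries, but the first IMX1765 maltotriose library had 318922, or 1.71% of the median, and only 11 to 143 reads per proteasome gene there, against 629 to 12782 in the other S. eubayanus libraries. That library is shown with its values and was left out of the tests, so IMX1765 on maltotriose is 1 library, assumed to vary like the other groups. The fit shares a single estimate of spread per gene over all groups, but the groups differed in the spread between their 2 cultures. As chi-square per degree of freedom it was 9.04 in IMX1765 and 14.8 in CDFM21L.1 on glucose. It was 108 in IMX1765 on maltose and 153 to 250 in the IMX1939 groups. The HTS020 groups, fitted apart, also differed, with 24.9 on maltotriose, 78.9 on maltose and 8.64 on glucose. The MAL13 insert had 9860 to 28485 reads in the deep IMX libraries against 4 to 6 in CDFM21L.1 (a second gene model on the insert sequence, named FMC1 and not MAL13, had 210 to 1517 reads against 206 and 260), SGA1 had 0 to 7 reads in IMX libraries against 36 to 48 in CDFM21L.1, and SeMALT1 had 1 to 46 reads in IMX1939 against 36 to 859 in deep IMX1765 libraries.

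Where the promoters of the S. cerevisiae reference strain S288C were searched for the 9-base control element GGTGGCAAA, on both strands of the 300 bases before the start codon, 27 of the 34 proteasome genes held it (79.4%), against 73 of 6007 genes in all (1.22%). The element was present in 12 of 14 core subunit genes, the exceptions being PRE5 and PUP1, and in 15 of 18 regulatory subunit genes, the exceptions being RPN8, RPN10 and RPN13. It was found neither before RPN4 itself nor before RPN14. It lay 84 to 183 bases before the start codon, with a median of 120 bases, and 19 of the 27 read in the direction of the gene. The 8 windows shown belong to subunits whose values recur below: the active-site subunits PRE3 and PRE2, the deubiquitinase RPN11, and 5 further genes whose values are described in at least one comparison. Each is read in the direction of its gene, 5′ to 3′, from RefSeq build R64, with the element or its reverse complement in capitals. They come from S288C, not from CBC-1, and a match is a description of the letters only.
PRE3 (chrX:435035-435063, + strand): aacggaatccGGTGGCAAAaaagggaaaa
PRE2 (chrXVI:732184-732212, + strand): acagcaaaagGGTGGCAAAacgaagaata
PRE7 (chrII:141150-141178, + strand): aaactcaaagGGTGGCAAAaacaagcggt
PRE6 (chrXV:255218-255246, + strand): cgaagattctTTTGCCACCggaagggaaa
RPT4 (chrXV:813802-813830, - strand): aatagtggaaTTTGCCACCgaagggaaag
RPN2 (chrIX:220801-220829, - strand): atttattttcGGTGGCAAAactggataca
RPN6 (chrIV:286790-286818, - strand): tggttccaagGGTGGCAAAtgttggtaga
RPN11 (chrVI:153259-153287, + strand): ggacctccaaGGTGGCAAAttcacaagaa

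Levels are given as FPKM, fragment counts scaled for gene length and library size, so that genes of different length can be set side by side. In CDFM21L.1 on glucose the 14 core subunits averaged 271 ± 0.407 FPKM and the 18 regulatory subunits 184 ± 1.13 FPKM (mean ± SD, n = 2), so that core transcripts were 1.47 to 1.48 times as abundant per gene. Alpha subunits averaged 254 FPKM, beta subunits 289 FPKM, base subunits 181 FPKM and lid subunits 187 FPKM. The highest was PRE2, the chymotrypsin-like active-site subunit, at 409 ± 1.98 FPKM, followed by the beta subunit PUP3 at 341 ± 5.95 FPKM. The alpha subunits PRE6, at 289 ± 13.1 FPKM, and SCL1, at 285 ± 15.9 FPKM, came next and differed by less than their SDs. PUP1, the trypsin-like active-site subunit, had 274 ± 21.3 FPKM, and the beta subunit PRE1 had 267 ± 27.5 FPKM, also closer to each other than their SDs. The lowest subunits were the base scaffolds RPN2, at 118 FPKM, and RPN1, at 105 FPKM. All subunits stood between the 75.1 and 92.0 percentiles of genes in this strain, whereas RPN4, at 77.0 ± 12.5 FPKM, stood at the 67.8 percentile and RPN14, at 33.4 ± 2.80 FPKM, at the 43.5 percentile. The core to regulatory ratio was 1.32 to 1.45 in the IMX libraries.

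The 32 subunit genes together took 0.828 ± 0.0185% of assigned reads in IMX1939 on maltotriose, 0.845 ± 0.0104% on maltose and 0.838 ± 0.0658% on glucose (SD, n = 2 each). IMX1765 had 0.830 ± 0.0428% on maltotriose, with the low-depth library included, 0.851 ± 0.0223% on maltose and 0.837 ± 0.0259% on glucose. CDFM21L.1 on glucose had 0.709 ± 0.00423%, below every IMX group mean. In HTS020, with both subgenomes summed, the share was 0.510 ± 0.00456% on maltotriose, 0.890 ± 0.0378% on maltose and 0.722 ± 0.0110% on glucose, so that the 3 sugars were far apart in the hybrid and close together in the IMX strains. FPKM is a share of the reads and total RNA per cell was not measured, so fewer proteasome transcripts per cell and a larger pool of other transcripts cannot be told apart.

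**Figure D1:**
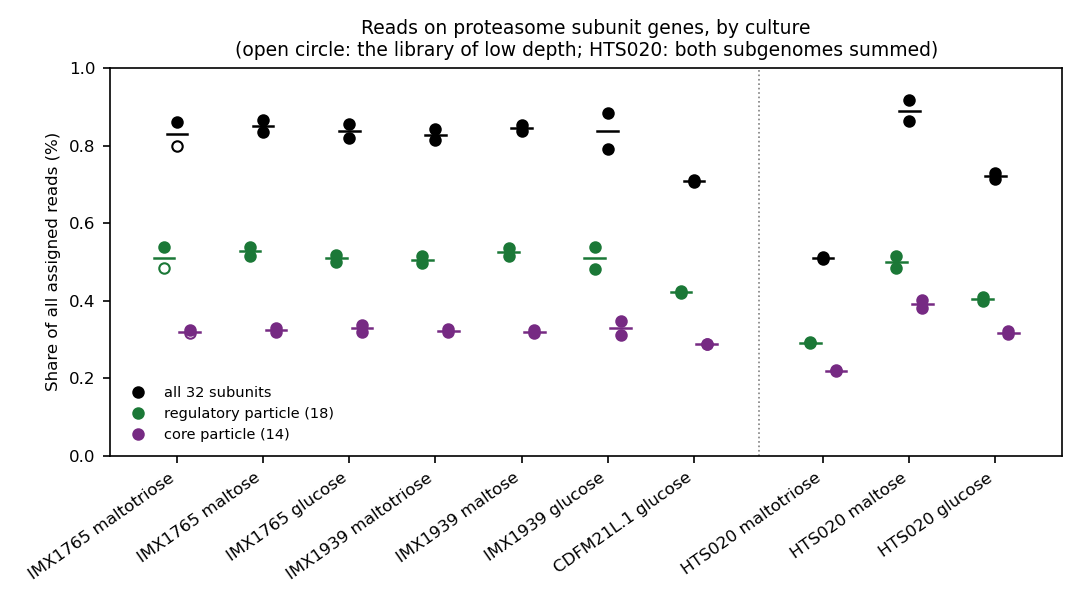
Share of gene-assigned reads (%, y axis) taken by all 32 proteasome subunit genes, by the 18 regulatory and by the 14 core subunits, in each of the 10 groups (x axis). Points are cultures, short lines their group means, the open circle is the low-depth library, and for HTS020 both subgenomes are summed: on maltotriose all 32 subunits took 0.510% on average, against 0.722% on glucose, while the IMX groups lay between 0.828% and 0.851%.

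The first question was whether proteasome transcripts differed between sugars in S. eubayanus strains that express the regulator MAL13 constitutively. Changes are differences of log2(FPKM + 1), which understates changes of low genes, with their SE, and a gene was called when its adjusted p was below 0.05 (limma, Benjamini-Hochberg over all 5404 genes tested, or 10983 in the hybrid table). All 34 and all 68 proteasome genes passed the filter on low values. In IMX1765 on maltose against glucose, 0 of 34 genes were called by limma, while 17.9% of all genes were. The unadjusted two-sided p was under 0.05 for 2 of them, and the voom fit on recovered reads also called 0. The median change of the 34 was 0.03, against -0.05 over all genes. The highest value was that of RPN4, at 0.45 ± 0.26, and the lowest that of PUP3, which had 298 and 328 FPKM on maltose against 369 and 389 FPKM on glucose, a change of -0.28 ± 0.12.

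In IMX1939 on maltose against glucose 1 of 34 genes was called, where 26.1% of all genes were. This gene was RPN2, which encodes a scaffold of the base and lies on S. eubayanus chromosome 9 from 199446 to 202277. It had 210.5 and 199 FPKM on maltose against 131 and 145 FPKM on glucose, with no overlap, a change of 0.57 ± 0.10 (adjusted p = 0.00271). The median change of the other genes on chromosome 9 in the same comparison was 0.59, and with each chromosome's median removed RPN2 changed by -0.068 and was not called. The lowest change was that of the ATPase RPT2, with 307 and 304 FPKM on maltose against 333 and 371 FPKM on glucose, at -0.20. Fitted on the compared groups alone, 0 genes were called.

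The active-site subunits and RPN11 were not called in any sugar comparison of the IMX strains. PRE3, the caspase-like subunit, had 314 and 321 FPKM in IMX1939 on maltotriose, 284 and 299 FPKM on maltose and 293 and 320.3 FPKM on glucose. PUP1 had 314 and 313 FPKM on maltotriose, 311 and 307 FPKM on maltose and 286 and 323 FPKM on glucose. PRE2 had 481 and 522.5 FPKM on maltotriose, 413.5 and 431 FPKM on maltose and 433.5 and 504 FPKM on glucose. The glucose cultures overlapped those of both other sugars for PRE3 and PUP1, and for PRE2 they overlapped maltotriose and lay just above maltose. RPN11 had 224 and 250.5 FPKM on maltotriose, 188 and 214 FPKM on maltose and 184.5 and 207 FPKM on glucose, and was highest in both maltotriose cultures. In IMX1765 the maltose and glucose cultures overlapped for PRE2, RPN11 and PUP1 and lay next to each other for PRE3. PRE3 had 276 and 292 FPKM on maltose against 256 and 265 FPKM on glucose, PUP1 277 and 299.8 FPKM against 297 and 324 FPKM, PRE2 409 and 429.5 FPKM against 404 and 442 FPKM, and RPN11 162 and 191 FPKM against 160.0 and 173 FPKM. The deep IMX1765 maltotriose library had 300.1 FPKM for PRE3, 290.5 FPKM for PUP1, 447.5 FPKM for PRE2 and 208.5 FPKM for RPN11.

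On maltotriose a few genes passed the test, in both directions, and most subunits did not. In IMX1939 against glucose 3 of 34 genes were called, 1 higher and 2 lower, where 52.3% of all genes were. The median of the 34 was 0.05, and that of all genes was also 0.05. With each library set to a common median, 1 was called higher and 6 lower, and on the compared groups alone 0 were called. The ATPase subunit RPT2 had 273 and 259 FPKM on maltotriose against 333 and 371 FPKM on glucose, and fell by 0.40 ± 0.10 (adjusted p = 0.00846). RPT4, also an ATPase of the base, had 182 and 137 FPKM on maltotriose against 217 and 233.5 FPKM on glucose, and fell by 0.51 ± 0.16 (adjusted p = 0.0246). Neither gene's cultures overlapped between the sugars. RPT4 was not called without either glucose replicate or without the second maltotriose replicate, and without the first maltotriose replicate 5 genes were called. In IMX1765 on maltotriose against glucose, with 1 deep maltotriose library, 3 of 34 genes were called, 2 higher and 1 lower, where 28.8% of all genes were, and the median was 0.07. The gene that was lower was PRE5, an alpha subunit, with 189 FPKM on maltotriose (280.2 FPKM in the low-depth library) against 258 and 275 FPKM on glucose, a change of -0.49 ± 0.16 (adjusted p = 0.0499). The low-depth library was above both glucose cultures. The PRE5 call was kept under 3 alternative settings of the fit and lost under 9. Over all genes the median change in this comparison was -0.04. All 3 IMX1765 calls were lost without either glucose replicate and with all 14 libraries fitted, and 22 genes were called on the compared groups alone.

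**Figure D2:**
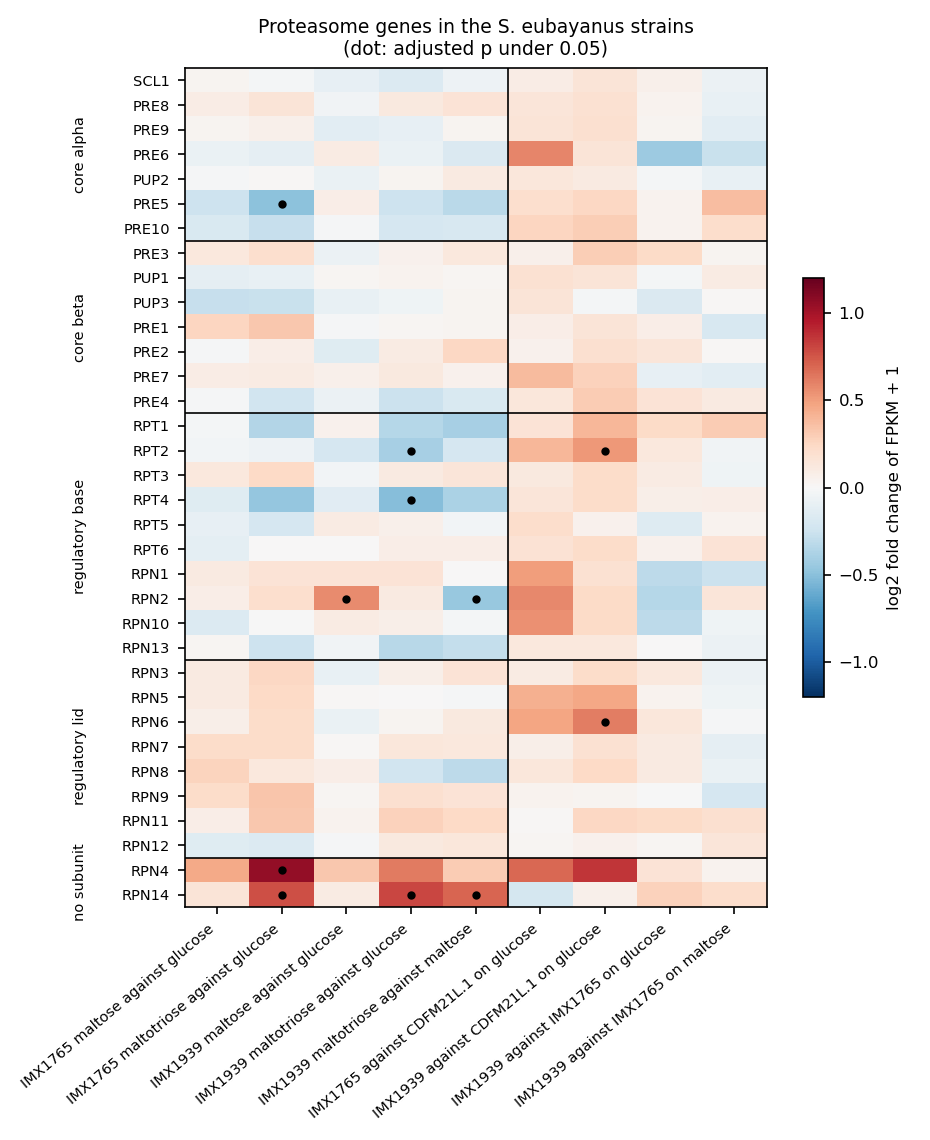
Change of the 34 proteasome genes (rows, by particle and role) in 9 comparisons of the S. eubayanus strains (columns, sugars left and strains right), as the difference of log2(FPKM + 1), with a dot where the adjusted p was below 0.05. Few cells carry a dot, at most 3 of 34 in a column: RPN4 at 1.05 and RPN14 at 0.77 are the darkest with a dot in IMX1765 on maltotriose against glucose, and RPN2 at 0.57 has the single dot in IMX1939 on maltose against glucose.

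RPN14 was called higher on maltotriose in both IMX strains and RPN4, whose product drives the subunit genes, in IMX1765, and no subunit was called higher there. RPN4 had 259 FPKM in the deep IMX1765 maltotriose library and 163 FPKM in the low-depth one, 140.3 and 207 FPKM on maltose and 127 and 121 FPKM on glucose. All maltotriose and maltose cultures were above both glucose cultures. It rose on maltotriose by 1.05 ± 0.32, with the limits given above. The RPN4 call was kept under 7 alternative settings of the fit and lost under 5. In IMX1939 it had 171 and 272 FPKM on maltotriose, 154 and 198.5 FPKM on maltose and 124 and 157 FPKM on glucose, a change of 0.63 ± 0.26 on maltotriose against glucose (adjusted p = 0.0747). The IMX1939 maltotriose cultures were both above glucose and far apart from each other.

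RPN14 had 49.6 FPKM in the deep IMX1765 maltotriose library and 27.3 FPKM in the low-depth one, where it rested on 11 reads, against 27.7 and 29.5 FPKM on glucose, and rose by 0.77 ± 0.22 in the fit without the low-depth library (adjusted p = 0.0299). In IMX1939 it had 52.9 and 71.1 FPKM on maltotriose, 34.9 and 39.8 FPKM on maltose and 30.6 and 39.5 FPKM on glucose. Both maltotriose cultures were above all 4 others. It rose by 0.80 ± 0.18 on maltotriose against glucose (adjusted p = 0.00567). Against maltose, where 2 of 34 genes were called and 13.5% of all genes were, RPN14 rose by 0.70 ± 0.18 (adjusted p = 0.0381) and RPN2, with 152 and 146 FPKM on maltotriose against 210.5 and 199 FPKM on maltose, fell by 0.46 ± 0.10 (adjusted p = 0.0256). The median of the other chromosome 9 genes there was -0.60, and with chromosome medians removed RPN2 changed by 0.20 and was not called. Without the first maltose replicate, without the second maltotriose replicate, with all 14 libraries or on the compared groups alone, 0 genes were called, and without the first maltotriose replicate 5 were; RPN14 was also lost without the second maltose replicate. Whether the sugar response differed between the strains was tested as an interaction, maltose against glucose in IMX1939 over IMX1765: 0 of 34 genes were called by limma and 0 by voom, 1 had an unadjusted p under 0.05, and 0.37% of all genes were called. RPN2 had the largest value, 0.49 ± 0.14 (adjusted p = 0.194), where the other chromosome 9 genes had a median of 0.68, and the beta subunit PRE1 the lowest, -0.27. PRE1 had 280.3 and 309 FPKM on maltose against 279.7 and 315 FPKM on glucose in IMX1939, and 355 and 319 FPKM on maltose against 280.5 and 280.8 FPKM on glucose in IMX1765.

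**Figure D3:**
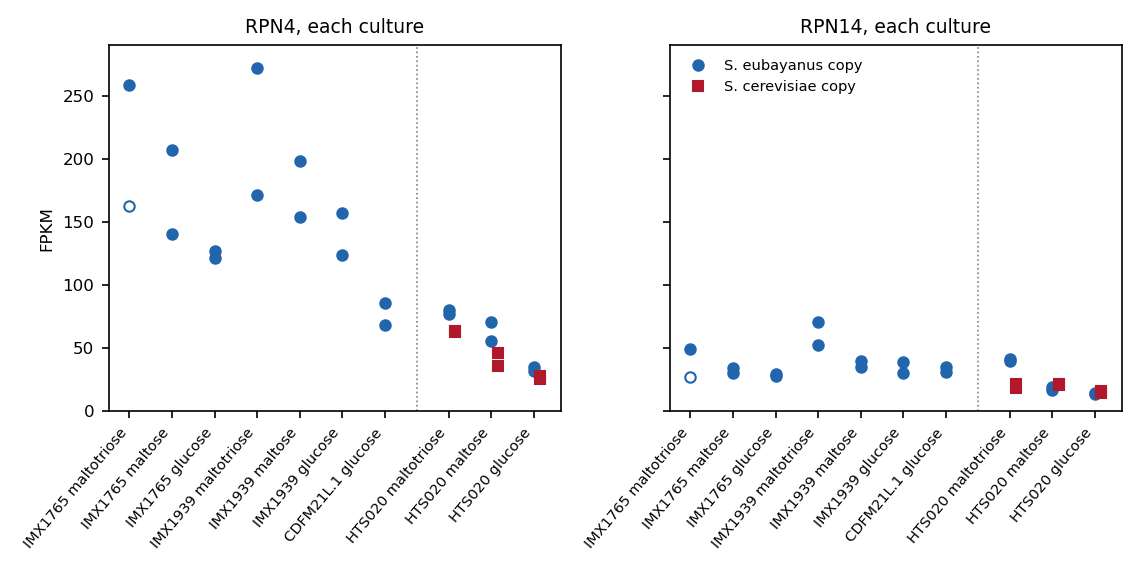
FPKM of RPN4 and RPN14 (y axes) in every culture of the 10 groups (x axis), with the S. eubayanus and S. cerevisiae copies apart for HTS020 and the low-depth library as an open circle. RPN14 sits at 52.9 and 71.1 FPKM in IMX1939 on maltotriose and at 39.9 and 41.6 FPKM for the S. eubayanus copy in HTS020 on maltotriose, above the glucose cultures of the same strain in both.

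The engineered strains were then set against unmodified CDFM21L.1 on glucose. In IMX1765 all 32 subunits had positive values, with a median over the 34 genes of 0.15 against -0.03 over all genes. However, 0 of 34 were called by limma and 0 by voom, where 0.444% of all genes were called by limma. The unadjusted p was under 0.05 for 10 of the 34, a count given without the share of all genes at that threshold. Fitted on the compared groups alone, 11 were called, a count also given without the share of all genes in that fit. The largest values were those of RPN4, with 127 and 121 FPKM in IMX1765 against 85.8 and 68.2 FPKM in CDFM21L.1 (0.69 ± 0.26, adjusted p = 0.369), and of the alpha subunit PRE6, with 407 and 467 FPKM against 280.1 and 299 FPKM (0.59, adjusted p = 0.0715). The base scaffold RPN2 followed, with 171 and 180.4 FPKM in IMX1765 against 118 and 118 FPKM in CDFM21L.1 (0.57, adjusted p = 0.0587). For each of these genes both IMX1765 cultures were above both CDFM21L.1 cultures. The lowest value was that of RPN14, with 27.7 and 29.5 FPKM in IMX1765 against 35.4 and 31.4 FPKM in CDFM21L.1, at -0.21.

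In IMX1939 against CDFM21L.1, 31 of 32 subunits had positive values, and the median was 0.22 against -0.03 over all genes. Of the 34 genes 2 were called, both higher, where 2.65% of all genes were called. RPN6, a lid subunit that contacts the core, had 318 and 370.2 FPKM in IMX1939 against 224 and 224 FPKM in CDFM21L.1, and rose by 0.61 ± 0.11 (adjusted p = 0.0263). RPT2 had 333 and 371 FPKM against 252.5 and 237 FPKM, and rose by 0.52 ± 0.10 (adjusted p = 0.0335). The 2 strains did not overlap for either gene. RPN4 had the highest value, with 124 and 157 FPKM against 85.8 and 68.2 FPKM (0.86 ± 0.26, adjusted p = 0.138), and PUP3 the lowest, with 305 and 368.5 FPKM against 336.5 and 345 FPKM (-0.02). The active-site subunits and RPN11 were not called: PRE2 had 433.5 and 504 FPKM in IMX1939 against 410.0 and 407 FPKM in CDFM21L.1, PRE3 293 and 320.3 FPKM against 257 and 242 FPKM, PUP1 286 and 323 FPKM against 259 and 289 FPKM, and RPN11 184.5 and 207 FPKM against 164 and 165 FPKM. Without either CDFM21L.1 replicate, without the second IMX1939 glucose replicate, with all 14 libraries or on the compared groups alone 0 genes were called, and without the first IMX1939 glucose replicate 3 were.

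The subunits with the largest strain differences lay on chromosomes whose other genes were also higher. RPN4, RPN5, RPN6 and RPT2 lie on S. eubayanus chromosome 4, RPN2 on chromosome 9, and PRE6, RPN1 and RPN10 on chromosome 15. In IMX1765 against CDFM21L.1 the medians of the other genes were 0.30 on chromosome 4, 0.40 on chromosome 9 and 0.33 on chromosome 15, against -0.09 to 0.02 on the remaining chromosomes. The subunits there had 0.59 for PRE6, 0.57 for RPN2, 0.55 for the ubiquitin receptor RPN10, 0.50 for RPN1, 0.48 for RPN6, 0.42 for the lid scaffold RPN5 and 0.40 for RPT2. In IMX1939 against CDFM21L.1 the other genes of chromosome 4 had a median of 0.31, and with chromosome medians removed RPN6 changed by 0.26 and RPT2 by 0.17, and neither was called. The chromosome 9 level relative to the CDFM21L.1 mean differed between the IMX1939 cultures of different sugars: it was 0.11 and 0.01 on maltotriose, 0.71 and 0.59 on maltose and 0.01 and 0.02 on glucose. In deep IMX1765 libraries it was 0.38 to 0.42 on every sugar. Chromosome copy number was not measured, and its part in the values of RPN2, RPN6, RPT2 and PRE6 was not tested.

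**Figure D4:**
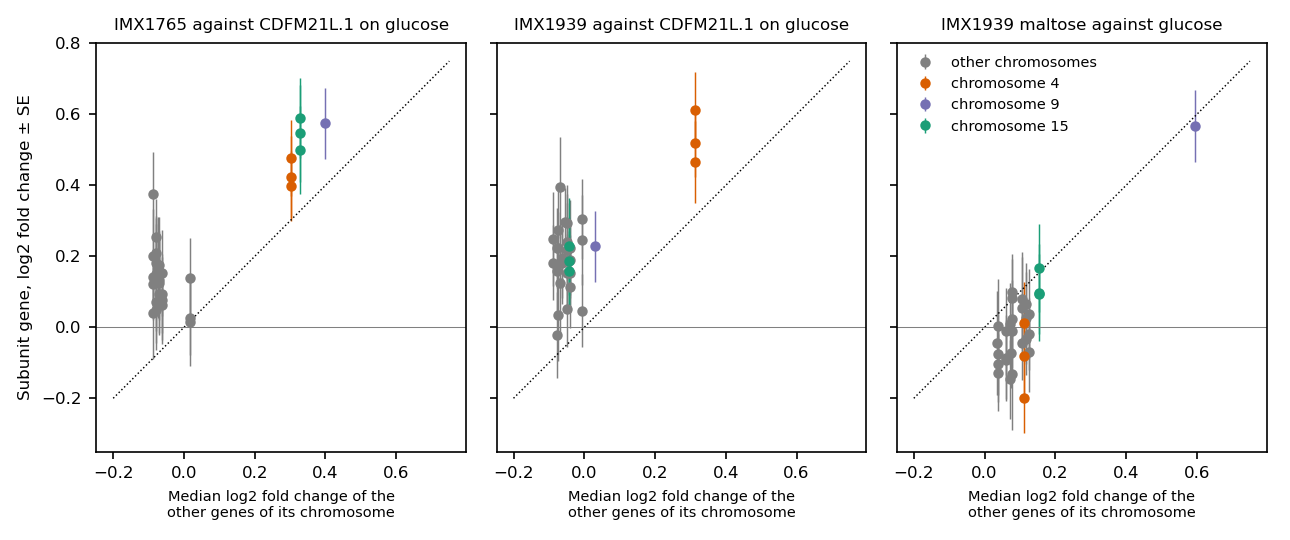
Change of each of the 32 subunit genes (y axis, difference of log2(FPKM + 1) ± SE) against the median change of the other genes on its chromosome (x axis), for IMX1765 and IMX1939 against CDFM21L.1 on glucose and for IMX1939 on maltose against glucose. Genes of chromosomes 4, 9 and 15 are coloured and the dotted line marks equal values: RPN2 lies at 0.57 with a chromosome 9 median of 0.59 in the maltose comparison.

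IMX1939 and IMX1765, whose named edits differ by the SeMALT1 deletion, were compared on 2 sugars. Whole chromosomes also differed between these strains. In IMX1939 against IMX1765 on glucose the other genes had a median of -0.40 on chromosome 9 and -0.36 on chromosome 15. On the remaining chromosomes the medians were -0.002 to 0.07. On glucose 0 of 34 genes were called by limma and 0 by voom, 5 had an unadjusted p under 0.05, and 5.68% of all genes were called. PRE6 had 304 and 342 FPKM in IMX1939 against 407 and 467 FPKM in IMX1765, the lowest value at -0.43 (adjusted p = 0.0632), where the other genes of chromosome 15 had a median of -0.36. RPN14 had the highest, with 30.6 and 39.5 FPKM in IMX1939 against 27.7 and 29.5 FPKM in IMX1765, at 0.27. On maltose 0 of 34 were called by limma and 0 by voom, 2 had an unadjusted p under 0.05, and 0.037% of all genes were called. There PRE5 had 309 and 274 FPKM in IMX1939 against 202 and 249 FPKM in IMX1765, the highest value at 0.37, and PRE6 and RPN1 were lowest at -0.26, where the other genes of their chromosome 15 had a median of -0.21 and those of the other chromosomes medians of 0.10 to 0.31. PRE6 had 349 and 341 FPKM in IMX1939 against 403 and 424 FPKM in IMX1765, and RPN1 had 146 and 125 FPKM against 147 and 176.5 FPKM.

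Across the 13 deep S. eubayanus libraries the genes whose level was most like that of RPN4, by Pearson's r of log2(FPKM + 1) among 5403 other genes, were RFS1 (r = 0.946), YNL144C (0.929), KSP1 (0.928), YAP1 (0.928) and CSG2 (0.927). Of the 33 other proteasome genes 27 had a positive r and 6 a negative one, with a median of 0.579, against 0.0212 over all genes. The nearest were the ATPase RPT3 (r = 0.914, rank 18), RPN6 (0.856, rank 113), the lid subunit RPN3 (0.837) and PRE3 (0.818), and the farthest were RPT4 (-0.541) and the ubiquitin receptor RPN13 (-0.466). RFS1, CSG2 and RPN6 lie on chromosome 4, as RPN4 does, and KSP1 lies on chromosome 15. YNL144C, YAP1 and RPT3 lie on chromosomes 14, 13 and 2. The chromosome 4 level relative to the CDFM21L.1 mean was 0.23 to 0.50 in the IMX libraries, and its part in these values was not tested. These libraries share strains and sugars, so the values describe a likeness of pattern and carry no test.

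In the hybrid, which carries both parents' proteasome genes, 63 of 64 subunit copies had positive values on maltose against glucose. The S. eubayanus core copies averaged 184.5 ± 8.0 FPKM on maltose against 150.5 ± 2.24 FPKM on glucose, and the S. cerevisiae core copies 185 ± 6.49 FPKM against 150.1 ± 1.45 FPKM (SD, n = 2 each). Regulatory copies averaged 113 ± 6.48 FPKM against 90.6 ± 3.33 FPKM in the S. eubayanus subgenome and 109 ± 4.80 FPKM against 89.5 ± 0.399 FPKM in the S. cerevisiae subgenome. The median change over the 68 genes was 0.30, against -0.01 over all genes. Called were 3 of 68, all higher, where 8.49% of all genes were called higher and 2.98% lower. The unadjusted p was under 0.05 for 38 of the 68, a count given without the share of all genes at that threshold. The S. eubayanus copy of RPN4 had 55.8 and 70.6 FPKM on maltose against 34.8 and 31.8 FPKM on glucose, and rose by 0.89 ± 0.15 (adjusted p = 0.0127). The S. cerevisiae copy had 36.0 and 46.3 FPKM against 28.2 and 25.9 FPKM, a change of 0.58 (adjusted p = 0.057). Both maltose cultures were above both glucose cultures for either copy. The other calls were both copies of RPN9, a lid subunit: the S. eubayanus copy had 90.0 and 94.8 FPKM on maltose against 61.1 and 67.7 FPKM on glucose and rose by 0.51 ± 0.12 (adjusted p = 0.0399), and the S. cerevisiae copy had 72.0 and 76.0 FPKM against 52.0 and 53.6 FPKM and rose by 0.48 ± 0.12 (adjusted p = 0.046). Cultures of the 2 sugars did not overlap for either copy. Under alternative settings of the fit the RPN9 call was lost 8 times for the S. eubayanus copy and 9 times for the S. cerevisiae copy. That of the S. eubayanus RPN4 copy was lost 2 times. The lowest value was that of the S. cerevisiae copy of RPN13, with 159 and 160.1 FPKM on maltose against 165.5 and 155 FPKM on glucose, at -0.01. Without either glucose replicate 0 genes were called, without the first maltose replicate 23 were, and without the second 1 was. With no filter 6 were called, and with each library set to a common median, with no trend in the variance, or on the compared groups alone 1 was.

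On maltotriose the hybrid's subunit transcripts were lower in both subgenomes. The S. eubayanus core copies averaged 108 ± 2.76 FPKM on maltotriose against 150.5 ± 2.24 FPKM on glucose, and the S. cerevisiae core copies 101 ± 0.429 FPKM against 150.1 ± 1.45 FPKM. Regulatory copies averaged 58.6 ± 0.583 FPKM against 90.6 ± 3.33 FPKM in the S. eubayanus subgenome and 73.4 ± 1.88 FPKM against 89.5 ± 0.399 FPKM in the S. cerevisiae subgenome. The core to regulatory ratio was 1.82 to 1.86 on maltotriose against 1.64 to 1.69 on glucose for S. eubayanus copies and 1.36 to 1.40 against 1.67 to 1.68 for S. cerevisiae copies, so that the maltotriose cultures lay above the glucose cultures in one subgenome and below them in the other. Of the 68 genes 50 were called lower and 4 higher, where 39.7% of all genes were called lower and 31.3% higher, and the median change was -0.55 against -0.14 over all genes. With each library set to a common median, which moved the median of all genes to 0.01, 36 were lower and 5 higher and the median of the 68 was -0.39. Without the second glucose replicate 33 were lower and 3 higher.

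By role, all 14 alpha copies were called lower, with a median of -0.84, and 12 of 14 beta copies, with a median of -0.55. Of the S. eubayanus regulatory copies 7 of 10 base and 7 of 8 lid subunits were lower, and of the S. cerevisiae ones 6 of 10 base and 4 of 8 lid subunits were. The largest fall was that of the S. eubayanus copy of RPN13, with 51.7 and 63.0 FPKM on maltotriose against 141 and 157 FPKM on glucose (-1.37 ± 0.14, adjusted p = 0.000136). Its S. cerevisiae copy had 151 and 178 FPKM on maltotriose against 165.5 and 155 FPKM on glucose, with overlap. RPT4 was lower in both subgenomes, with 42.3 and 37.9 FPKM on maltotriose against 99.3 and 108.5 FPKM on glucose for the S. eubayanus copy (-1.35 ± 0.12, adjusted p = 8.4e-05) and 50.0 and 48.6 FPKM against 91.0 and 90.8 FPKM for the S. cerevisiae copy. The lowest S. cerevisiae copy was that of PRE6, with 60.0 and 52.6 FPKM on maltotriose against 124 and 129.5 FPKM on glucose (-1.16 ± 0.12, adjusted p = 0.000155). Both maltotriose cultures lay below both glucose cultures for each of these genes except the S. cerevisiae RPN13 copy.

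The active-site subunits were lower in both subgenomes. PRE3 had 103 and 108 FPKM on maltotriose against 154 and 154 FPKM on glucose for the S. eubayanus copy (-0.54 ± 0.10, adjusted p = 0.00278), and 124 and 114.5 FPKM against 183 and 168 FPKM for the S. cerevisiae copy (-0.55 ± 0.11, adjusted p = 0.0036). PUP1 had 112 and 91.2 FPKM against 160.4 and 155 FPKM for the S. eubayanus copy (-0.64 ± 0.13, adjusted p = 0.00416), and 73.3 and 72.3 FPKM against 136 and 136.5 FPKM for the S. cerevisiae copy (-0.90 ± 0.11, adjusted p = 0.000286). Cultures of the 2 sugars did not overlap for any of these copies. PRE2 had 119.5 and 111 FPKM on maltotriose against 144 and 155 FPKM on glucose for the S. eubayanus copy (-0.38 ± 0.11, adjusted p = 0.0184), and 111 and 103 FPKM against 154.5 and 159 FPKM for the S. cerevisiae copy (-0.55 ± 0.11, adjusted p = 0.00372). The call of the S. eubayanus PRE2 copy was lost under 5 alternative settings of the fit. Among them were libraries set to a common median and fits without either glucose replicate or the second maltotriose replicate. RPN11 had 79.1 and 69.2 FPKM on maltotriose against 101 and 109 FPKM on glucose for the S. eubayanus copy (-0.50 ± 0.17, adjusted p = 0.0319, lost without any one of the 4 cultures), and 70.3 and 67.8 FPKM against 96.7 and 106 FPKM for the S. cerevisiae copy (-0.55 ± 0.14, adjusted p = 0.00971). Over all alternative settings the RPN11 call was lost 6 times for the S. eubayanus copy and 3 times for the S. cerevisiae copy.

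Of the 34 genes, 22 were called lower in both copies, where 30.3% of all 4617 name-matched pairs tested were. For RPN3, RPN5, RPN6, RPN8 and RPN13 only the S. eubayanus copy was called lower, and for RPN9 only the S. cerevisiae copy; the test of the copy difference is given with the ratios. Neither copy was called lower for the beta subunit PRE7, the ATPases RPT3, RPT5 and RPT6, RPN4 and RPN14. The 4 higher calls were 2 for RPN4 and 1 each for RPN14 and PRE7. RPN4 had 80.8 and 77.3 FPKM on maltotriose against 34.8 and 31.8 FPKM on glucose for the S. eubayanus copy, and rose by 1.22 ± 0.15 (adjusted p = 0.000332). Its S. cerevisiae copy had 63.9 and 62.8 FPKM against 28.2 and 25.9 FPKM, and rose by 1.20 ± 0.15 (adjusted p = 0.000422). Thus the gene for the activator was higher in both subgenomes in the cultures where most subunit copies were lower. RPN14 had 39.9 and 41.6 FPKM against 13.9 and 14.6 FPKM for the S. eubayanus copy, and rose by 1.45 ± 0.14 (adjusted p = 0.000104), while its S. cerevisiae copy had 21.4 and 18.7 FPKM against 14.7 and 16.1 FPKM (0.36, adjusted p = 0.0521). PRE7 had 251 and 241.5 FPKM on maltotriose against 173 and 183 FPKM on glucose for the S. eubayanus copy, and rose by 0.47 ± 0.12 (adjusted p = 0.00936), a call lost without either glucose replicate, and 153 and 176 FPKM against 133 and 141.5 FPKM for the S. cerevisiae copy (0.26, adjusted p = 0.143).

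**Figure D5:**
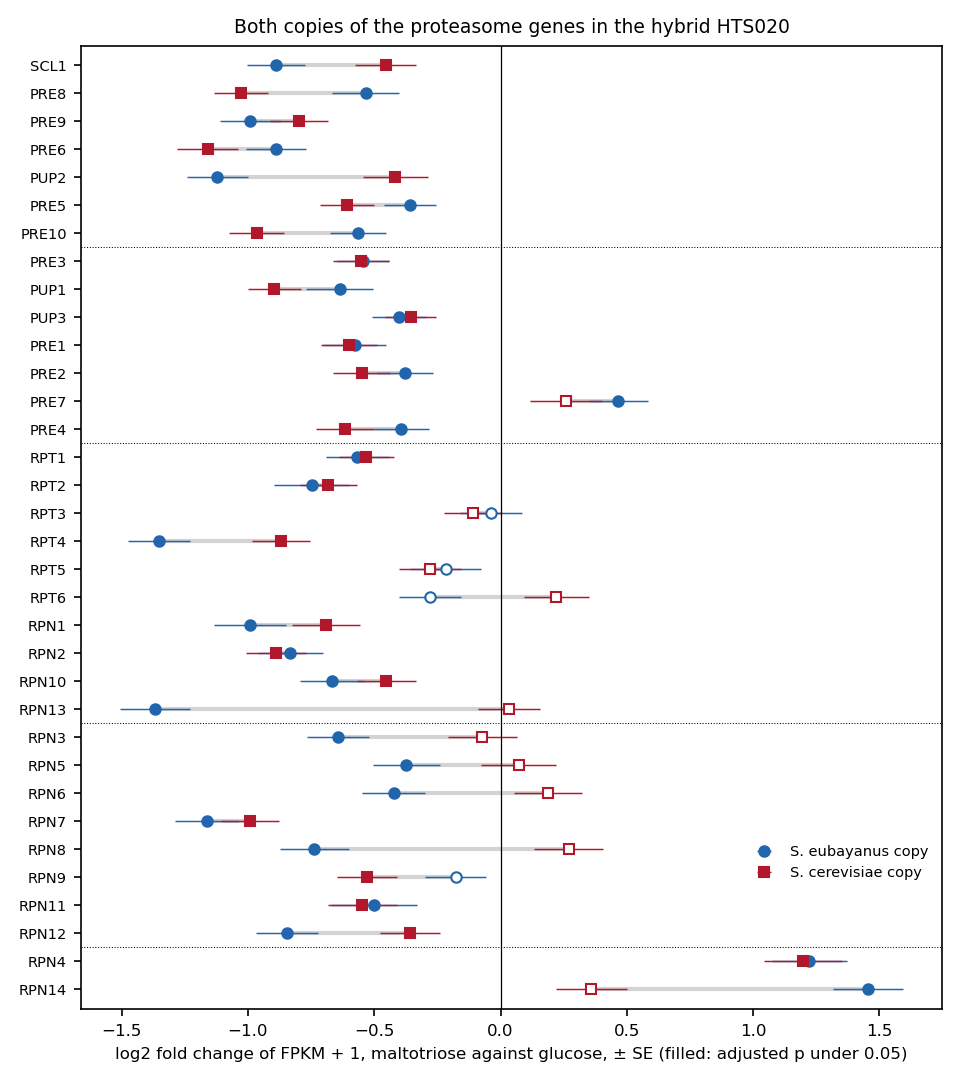
Change of both copies of each of the 34 genes (rows; circles S. eubayanus, squares S. cerevisiae) in HTS020 on maltotriose against glucose (x axis, difference of log2(FPKM + 1) ± SE), with filled points where the adjusted p was below 0.05. Both RPN4 copies lie near 1.2, the S. eubayanus RPN13 copy at -1.37, and most other subunits of both subgenomes to the left of 0.

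Against maltose 57 of 68 genes were called lower on maltotriose and 2 higher, where 36.7% of all genes were lower and 28.1% higher, and the median was -0.81 against -0.15 over all genes. The lowest was the S. eubayanus copy of the lid subunit RPN7, with 33.5 and 31.7 FPKM on maltotriose against 94.8 and 107 FPKM on maltose (-1.60 ± 0.13). The lowest S. cerevisiae copy was that of the alpha subunit PRE8, with 73.1 and 70.4 FPKM against 198.5 and 194 FPKM (-1.44). The higher genes were the S. eubayanus copy of RPN14, with 39.9 and 41.6 FPKM on maltotriose against 16.8 and 19.5 FPKM on maltose (1.13 ± 0.14, adjusted p = 0.000412), and the S. cerevisiae copy of RPN4, with 63.9 and 62.8 FPKM against 36.0 and 46.3 FPKM (0.62 ± 0.15, adjusted p = 0.0103). The maltotriose and maltose cultures did not overlap for any of these copies. Both maltotriose comparisons share their maltotriose cultures.

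Other genes of these maltotriose cultures also stood apart. The stress gene HSP12, with both copies summed, had 44872 and 47353 FPKM on maltotriose, 531 to 834 FPKM on maltose and 126 to 178 FPKM on glucose, and the desiccation-induced gene GRE1 had 42141 and 39792 FPKM on maltotriose, 134 to 192 FPKM on maltose and 41.5 to 46.2 FPKM on glucose. The 10 most abundant genes took 9.01 to 9.38% of reads on maltotriose and 5.16 to 6.22% in the other hybrid libraries. Cytosolic ribosomal protein genes were called lower on maltotriose against glucose for 244 of 258 copies and higher for 3, with a median of -0.95, and autophagy genes were called higher for 53 of 60 copies, with a median of 1.38, where 39.7% of all genes were lower and 31.3% higher. In IMX1939 on maltotriose against glucose, where the 34 proteasome genes had a median of 0.05, 125 of 128 ribosomal protein genes were lower, with a median of -1.32, and 17 of 28 autophagy genes were higher, with a median of 0.57, where 22.3% of all genes were lower and 30.0% higher. The part of growth or stress state in the subunit levels was not tested. Of the 27 S. cerevisiae copies whose reference promoter held the control element, 20 were called lower on maltotriose against glucose, with a median of -0.55, and of the 5 subunits without it 3 were, with a median of -0.45 and a range of -0.90 to 0.27.

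The S. eubayanus copy was then compared with the S. cerevisiae copy of the same gene within each library, as a log2 ratio, over the 3540 name-matched pairs with at least 10 FPKM; all 34 proteasome pairs entered. On glucose the S. eubayanus copy was called higher for 11 of 34 pairs and lower for 7, where 30.5% of all pairs were called higher and 29.9% lower, and leaving out either glucose replicate left 8 calls. PRE6 had 189 and 204 FPKM for the S. eubayanus copy against 124 and 129.5 FPKM for the S. cerevisiae copy, a ratio of 0.63 ± 0.07 (adjusted p = 9.74e-05), and PRE5 (0.50) and RPT6 (0.44) followed. PUP3 had 185 and 185 FPKM for the S. eubayanus copy against 259 and 272 FPKM for the S. cerevisiae copy, a ratio of -0.52 ± 0.05 (adjusted p = 7.49e-05), and the ATPases RPT1 (-0.48) and RPT2 (-0.42) followed. On maltose 12 pairs were higher and 7 lower, where 31.3% and 28.8% of all pairs were, with PRE6 (0.64) and RPN4 (0.61) at one end and RPT1 (-0.54) and the beta subunit PRE4 (-0.52) at the other. On maltotriose 10 were higher and 14 lower, where 34.9% and 38.8% of all pairs were, with RPN14 (0.99), PRE6 (0.90) and PRE5 (0.75) at one end and RPN13 (-1.51), RPN8 (-1.14) and the alpha subunit PUP2 (-0.84) at the other.

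The test of whether the copies responded differently is the shift of this ratio between sugars. Between maltose and glucose 0 of 34 pairs shifted in either direction by limma, where 3.05% of all pairs shifted up and 2.03% down. The unadjusted p was under 0.05 for 1 of the 34 pairs and for 643 of all 3540 pairs. The shifts of the 34 ranged from -0.17 to 0.32 and the smallest adjusted p, that of RPN4, was 0.143. Between maltotriose and glucose 6 of 34 pairs shifted toward the S. eubayanus copy and 10 away from it, where 27.7% of all pairs shifted up and 33.1% down. RPN13 shifted by -1.40 ± 0.10 (adjusted p = 1.29e-05). RPN8, a lid partner of RPN11, had 40.2 and 36.7 FPKM on maltotriose against 61.5 and 68.0 FPKM on glucose for the S. eubayanus copy, and 82.3 and 88.9 FPKM against 69.8 and 71.8 FPKM for the S. cerevisiae copy, a shift of -1.01 ± 0.12 (adjusted p = 0.000146). PUP2 had 55.1 and 50.2 FPKM against 113 and 118 FPKM for the S. eubayanus copy and 86.3 and 104 FPKM against 124.5 and 129 FPKM for the S. cerevisiae copy, a shift of -0.70 (adjusted p = 0.00177). RPN6 had 78.2 and 75.1 FPKM against 102 and 104.5 FPKM for the S. eubayanus copy and 104 and 108 FPKM against 92.3 and 93.5 FPKM for the S. cerevisiae copy, a shift of -0.61 (adjusted p = 0.000589). For RPN6 and RPN8 the maltotriose cultures lay below the glucose cultures in the S. eubayanus copy and above them in the S. cerevisiae copy, while both copies of PUP2 lay below. RPN14 shifted by 1.10 ± 0.15 toward the S. eubayanus copy (adjusted p = 0.000302), and the other upward shifts were PRE8 (0.49), PRE10 (0.40), RPN9 (0.35), PRE6 (0.27) and PRE5 (0.25). By role, alpha subunits shifted 4 up and 2 down, beta subunits 0 of 7, base subunits 0 up and 3 down and lid subunits 1 up and 5 down. Of the pairs in which only the S. eubayanus copy was called lower, RPN3 (-0.57) and RPN5 (-0.45) also shifted, as did RPN6, RPN8 and RPN13. Reads shared by near-identical stretches of the 2 copies could be assigned to either, and no count of such reads was made.

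Genes that work with the proteasome were taken from fixed lists of assembly factors and associated proteins, ubiquitin pathway genes, regulators linked to RPN4, and chaperones. In IMX1939 on maltotriose against glucose 2 of 14 assembly genes were called higher and 3 lower, 5 of 25 ubiquitin genes higher and 3 lower, 2 of 4 RPN4-linked regulators higher, and 1 of 18 chaperones higher and 5 lower, where 30.0% of all genes were higher and 22.3% lower. In each of these lists the share of genes called in either direction was thus below that of all genes. NAS6, a chaperone of the base, rose by 0.81, NAS2, also a base chaperone, by 0.63, and the small lid subunit gene SEM1 fell by 0.85 (adjusted p = 0.00795). CIC1, a nucleolar protein also described as a proteasome adaptor, fell by 1.23. UBC5, a stress-linked ubiquitin-conjugating enzyme, rose by 0.75, DDI1, a shuttle protein, by 0.89, and HRD1, a ubiquitin ligase of the endoplasmic reticulum whose adjacent gene models were joined, by 1.12. Of the chaperones, the small heat shock protein HSP26 rose by 2.59, while SSB1 and YDJ1, which assist newly made proteins, fell by 1.18 and by 1.03. The model of the HSP70 gene SSA2 on chromosome 12 fell by 1.87; S. eubayanus has 2 models of this name, and reads of near-identical HSP70 genes may be split between them. Among the regulators YAP1, an oxidative stress factor, rose by 0.73 and PDR3, a drug resistance factor, by 0.67, while PDR1 and HSF1 were not called. YAP1 and PDR3 act upstream of RPN4 in S. cerevisiae, and RPN4 itself was not called in this comparison. In IMX1765 on maltose against glucose 1 of the 14 assembly genes was called higher and 0 lower, where 17.9% of all genes were called in either direction. That gene was NAS6, which rose by 0.50. In the ubiquitin list UBC5 rose by 0.64 and RAD23 fell by 0.54. Of the chaperones HSP26 fell by 2.57, SSA4 by 1.50 and the chromosome 12 model of SSA2 by 1.19.

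In the hybrid on maltotriose against glucose 10 of 28 assembly copies were called higher and 10 lower, 17 of 50 ubiquitin copies higher and 12 lower, 3 of 8 RPN4-linked copies higher and 0 lower, and 14 of 38 chaperone copies higher and 16 lower, where 31.3% of all genes were higher and 39.7% lower. YAP1 rose by 1.32 in the S. eubayanus copy and by 1.04 in the S. cerevisiae copy, beside RPN4. NAS2 rose by 1.57 in the S. cerevisiae copy, and the heat shock protein gene SSA3 by 4.45 in the S. eubayanus and by 6.16 in the S. cerevisiae copy, while the S. eubayanus model of SSA2 on chromosome 12 fell by 5.93; the split of reads between these HSP70 genes is likewise uncertain. Among associated factors the S. cerevisiae copy of the proteasome activator BLM10 rose by 1.47 and that of ECM29, which holds core and cap together, fell by 1.50. UBC5 rose by 2.56 in the S. eubayanus copy and by 3.37 in the S. cerevisiae copy, and UBC4 fell by 2.46 and by 1.67; these paralogs are nearly identical, so the split of reads between them is uncertain. On maltose against glucose 1 of 28 assembly copies was called higher and 0 lower, 5 of 50 ubiquitin copies and 12 of 38 chaperone copies higher with 0 lower, and 0 of 8 RPN4-linked copies in either direction, where 8.49% of all genes were higher and 2.98% lower. The assembly gene was UMP1, the chaperone that matures the core, whose S. cerevisiae copy had 196.5 and 224.5 FPKM on maltose against 129.7 and 139 FPKM on glucose and rose by 0.64 ± 0.12 (adjusted p = 0.0213).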

How the data were processed

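Polyadenylated RNA from duplicate cultures was sequenced in pairs of 150-base reads. The authors deposited FPKM values per gene and library, one table for the S. eubayanus strains and one for the hybrid; the submitters' processing notes name STAR 2.5.3a and featureCounts from Subread 1.6.3, while the study's methods name htseq-count. The tables were normalized separately, so tests stayed within a table. Whole reads were recovered from the FPKM steps for 100% of values.

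Values were tested as log2(FPKM + 1) with limma 3.58.1 in R 4.3.3, with a variance trend, for genes averaging 1 FPKM or more over the fitted libraries; copy ratios used pairs averaging 10 FPKM or more in each subgenome. The Benjamini-Hochberg threshold was 0.05, and all tests were two-sided. Except for the copy ratios, counts at an unadjusted p under 0.05 are given without the share of all genes at that threshold. They therefore show neither an excess nor a deficit. The first IMX1765 maltotriose library was left out for its depth, so that 13 libraries entered the S. eubayanus fit. The fit was tested on simulated counts with the same spread in every group and no link between cultures. The real groups differed in spread, so the simulation does not cover that feature.

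The genes and lists were chosen with earlier results of these data known. Values per culture were given for RPN4, the active-site beta subunits, RPN11 and the highest and lowest gene of a comparison, and for further genes where a comparison turns on them; up to 4 called genes came from each other list. Alternatives were all 14 libraries, the pseudocount, the filter, a common median per library, no trend, voom on recovered reads, the replicate block, the compared groups alone, each replicate left out and, chosen after seeing the data, chromosome centring and a crossed block. Summary and motif steps used Python 3.11.15. Counting intervals do not apply to FPKM; deep libraries hold at least 316 reads per proteasome gene copy.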

Additional observations from a re-analysis of the deposited data

Results flagged for a closer look

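In HTS020 the response to maltotriose against glucose differed between the S. eubayanus and S. cerevisiae copies of 16 of the 34 proteasome genes, by the test of the difference itself on the log2 ratio of the copies (limma, Benjamini-Hochberg, threshold 0.05). The values are the S. eubayanus response minus the S. cerevisiae response. The ubiquitin receptor RPN13 stood at -1.40 and the lid subunit RPN8 at -1.01. The alpha subunits PUP2 and SCL1 stood at -0.70 and -0.43. The lid subunits RPN6, RPN3, RPN12 and RPN5 had -0.61, -0.57, -0.49 and -0.45, and the ATPases RPT6 and RPT4 had -0.50 and -0.48. In the other direction, the alpha subunits PRE8, PRE10, PRE6 and PRE5 had 0.49, 0.40, 0.27 and 0.25, the lid subunit RPN9 had 0.35, and the base chaperone RPN14 had 1.10. Of all 3540 pairs, 27.7% were called upward and 33.1% downward by the same test, so a share of 16 in 34 is below that background.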

How the results depend on the processing

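Counts below are of proteasome genes called in either direction. The share of all genes called under each setting is not given, so these counts show neither an excess nor a deficit of proteasome genes. For IMX1765 on maltotriose against glucose (3 called) the count was 0 with all 14 libraries, 1 with libraries set to a common median, 22 on the compared groups alone and 1 with chromosome centring, a setting chosen after seeing the data, and it was 0 to 0 with a replicate left out. For IMX1939 on maltotriose against glucose (3) it was 7 with a common median, 0 on the compared groups alone, 6 with chromosome centring and 2 to 5 with a replicate left out; against maltose (2) it was 0 with all 14 libraries, 0 on the compared groups alone, 1 with centring and 0 to 5 with a replicate left out; on maltose against glucose (1) it was 0 on the compared groups alone and 0 with centring, where RPN2 reversed to -0.068 on maltose against glucose and to 0.20 on maltotriose against maltose. For IMX1939 against CDFM21L.1 (2) it was 0 with all 14 libraries, 0 on the compared groups alone, 0 with centring and 0 to 3 with a replicate left out, and for IMX1765 against CDFM21L.1 (0) it was 11 on the compared groups alone. For HTS020 on maltose against glucose (3) it was 6 with no filter, 1 with a common median, 1 without a variance trend, 1 on the compared groups alone and 0 to 23 with a replicate left out, and for the copies on glucose (18) 8 to 8. The causes were not tested. The HTS020 maltotriose counts ranged from 36 to 50 against glucose and from 58 to 60 against maltose with a replicate left out. With chromosome centring the count for maltotriose against glucose (54) was 44, of which 42 were also called without it. For maltotriose against maltose (59) it was 59, with 58 in common, and for maltose against glucose (3) it was 2, with 1 in common. The labels give only replicate numbers, so cultures were not treated as paired: deviations of same-numbered cultures correlated at 0.574 to 0.697 among IMX1939 groups and at -0.136 to 0.258 among HTS020 groups. With the replicate block the count was 5 for IMX1939 on maltotriose against glucose and 1 for HTS020 on maltose against glucose. A crossed block, chosen after seeing the data, gave 2, 54 and 59 calls in the HTS020 comparisons of maltose with glucose, maltotriose with glucose and maltotriose with maltose, and 3 and 0 in those of IMX1939 and IMX1765 with CDFM21L.1. A common median per library moved the median of all genes by 0.15 and 0.13 in the HTS020 maltotriose comparisons with glucose and maltose, by -0.12 in IMX1939 on maltose against glucose, by -0.12 in IMX1939 against IMX1765 on maltose and by -0.13 in the interaction. Of 624 values of single proteasome genes under the alternatives, 532 kept their call and its direction or stayed uncalled with either sign. A further 82 lost the call, 8 gained it and 2 reversed. With 2 cultures a group, the number of cultures limits precision more than read depth, except in the low-depth library.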
